A study of Arabidopsis thaliana with 11 samples.

Results

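Transcripts nearly confined to the seedling were taken from a comparison of stigma, ovary and whole seedling in Arabidopsis thaliana. A probe set was a member when its mean signal over the seedling arrays was at least 10 times its mean over the stigma arrays and at least 10 times its mean over the ovary arrays. Means under 50 were first set to 50. Of 22746 probe sets without controls, 136 passed this ratio. A few gene families and single genes were left out by name, which removed 5 of them, and 131 members (0.576%) remained. Members were thus chosen by the seedling, stigma and ovary mean signals, and the gap between seedling and pistil is described below with no test. A probe set is a group of short probes on the array that reads 1 transcript, or several alike ones.

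All plants were of the accession Landsberg erecta, and the labels name no mutation, transgene or treatment. There were 3 stigma, 4 ovary and 4 seedling arrays of the Affymetrix ATH1 type. Flower buds were emasculated at stage 8, and pistils were taken after a day and cut into stigma and ovary. Seedlings were 10 days old, had been raised on Murashige and Skoog plates and were taken whole, roots and shoots together, and the labels do not say how many plants gave each sample or whether samples came from separate cultures. All p-values therefore measure how far these samples spread, and some of that spread may be technical. In whole tissues, fewer cells of a type and less RNA per cell cannot be told apart.

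The signal is the brightness of a probe set on a linear scale, with every array brought to the same trimmed mean, and array medians ran from 206 to 256. The arrays carried the marks of their labels. PYK10, a β-glucosidase gene of roots and seedlings that was left out of the set by name, had 12294 to 16436 on the seedling arrays and at most 154.5 on the others, and AT3G12000, a relative of the S-locus glycoproteins of the stigma, had 12910 to 14659 in stigma and 46.4 to 68.4 in seedling. Ovary 1 had 1832.3 for AT3G12000, against 124 to 316.4 on the other ovary arrays. Seedling 4 stood apart from the other seedlings, with a mean rank correlation with them of 0.945 against 0.962 to 0.967. Seedlings 1 and 2 were scanned in another run than seedlings 3 and 4, on chips of other lots, and the labels call the first pair seedling and the second plant as the source. Stigma and ovary arrays lay in a further pair of runs, so no run held both seedling and pistil.

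A seedling has roots, root hairs, expanding leaves and a vascular system, and it meets nutrients and light directly. Roots make endoplasmic reticulum bodies, stores of β-glucosidase that mix with lectins when a cell is broken, and they secrete peroxidases and coumarins into the wall and the medium. Roles given below for genes known only by a locus number come from general knowledge, since the annotation of the array gave no role.

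Of the 131 members, 63 could be named with 1 gene (48.1%, against 59.4% of all probe sets), 12 by a symbol and 51 by a locus number. A further 6 members match several genes and 62 are not listed in the annotation used, and these 68 are counted without a gene name. Probe sets marked as shared between related transcripts made up 9.92% of the members and 4.66% of the array, and none of the 63 was of this kind. All 131 members passed the filter on low signals, a signal over 144.2 on at least 3 arrays, through the seedling alone in most cases: 22 were over it on at least 3 pistil arrays and 88 on no pistil array. The name holds as a ratio rather than as absence, since 5 members had a pistil mean over 500 and 44 had both pistil means under 50. For these 44 the ratio to the floor is a lower bound.

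The ratio ran from 10.02 to 187, with a median of 14.7. It was 10 to 20 for 89 members, 20 to 50 for 34 and at least 50 for 8. In every member the lowest seedling array lay above the highest pistil array, and in 58 every seedling array was at least 10 times the larger floored pistil mean. In 28 members that held for 3 seedling arrays, in 36 for 2 and in 9 for 1. The seedling mean ran from 506 to 15521 with a median of 1248. Signals of different probe sets depend on their probes, so this range is not an order of transcript abundance.

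**Figure D1:**
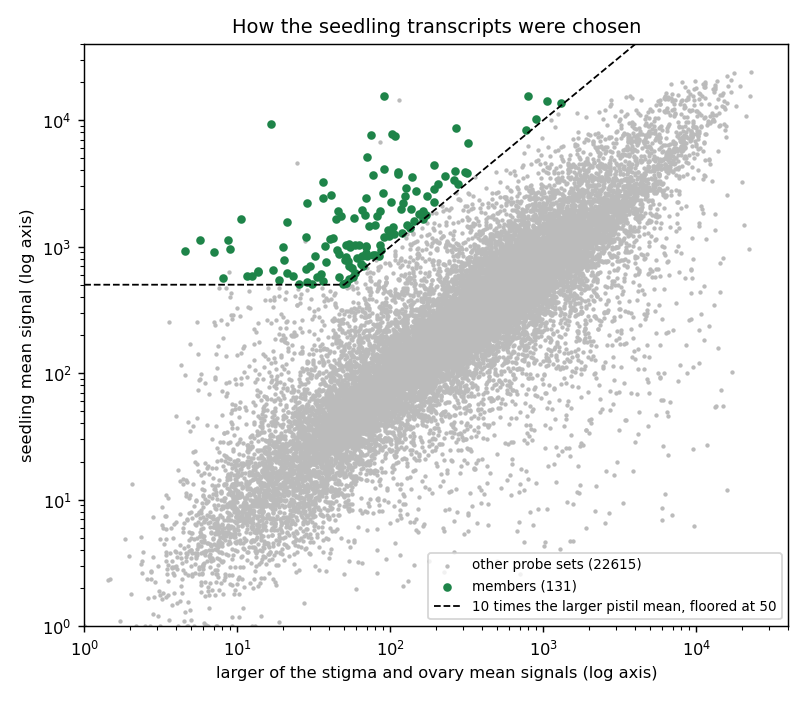
Mean signal over the 4 seedling arrays against the larger of the stigma and ovary means, for all 22746 probe sets, both on log axes. The 131 members (green) lie on or above the dashed line of a 10-fold ratio, with pistil means under 50 set to 50; grey points above it are the 5 probe sets left out by name.

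The members closest to the threshold were AT1G67330 (ratio 10.02), AT3G20340 (10.05) and 255331_at (10.06). The closest ones outside were 260221_at (9.90), 250090_at (9.86) and 251155_at (9.84). AT1G67330 belongs to a family of polysaccharide methyltransferases, and its seedling signals were 944, 962.4, 778.5 and 709.5, all above its pistil signals of 9.7 to 123.5.

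The largest ratio among named members belonged to AT2G05540, a gene for a glycine-rich protein. It had 20.7, 17.8 and 19.6 in stigma, 187.7, 30.6, 39 and 25.8 in ovary, and 2629.9, 2595.5, 6235.5 and 9021 in seedlings 1 to 4, a ratio of 72.3. All its seedling arrays were far above all its pistil arrays, ovary 1 was high among the ovaries, and seedlings 3 and 4 were high among the seedlings. AT1G23130, of the Bet v 1 type family of small ligand-binding proteins, had 14.2 to 23 in stigma, 22.2 to 61.2 in ovary and 3105, 2405.3, 4092.5 and 3287 in seedling, at least 64.4 times the floor. Probe sets that the annotation does not list had higher ratios. Of these, 259382_s_at had 8344.5 to 10004.2 in seedling and at most 24.4 in the pistil, and 263046_at had 14396.7 to 16084.8 against at most 188.7 (ratios 187 and 171). Less even were 252367_at, with 4130.9, 5122.3, 8488.2 and 12883.1 in seedling (102), and 253161_at, with 1571.8, 1442.6, 7245 and 20774.4 (75.8).

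**Figure D2:**
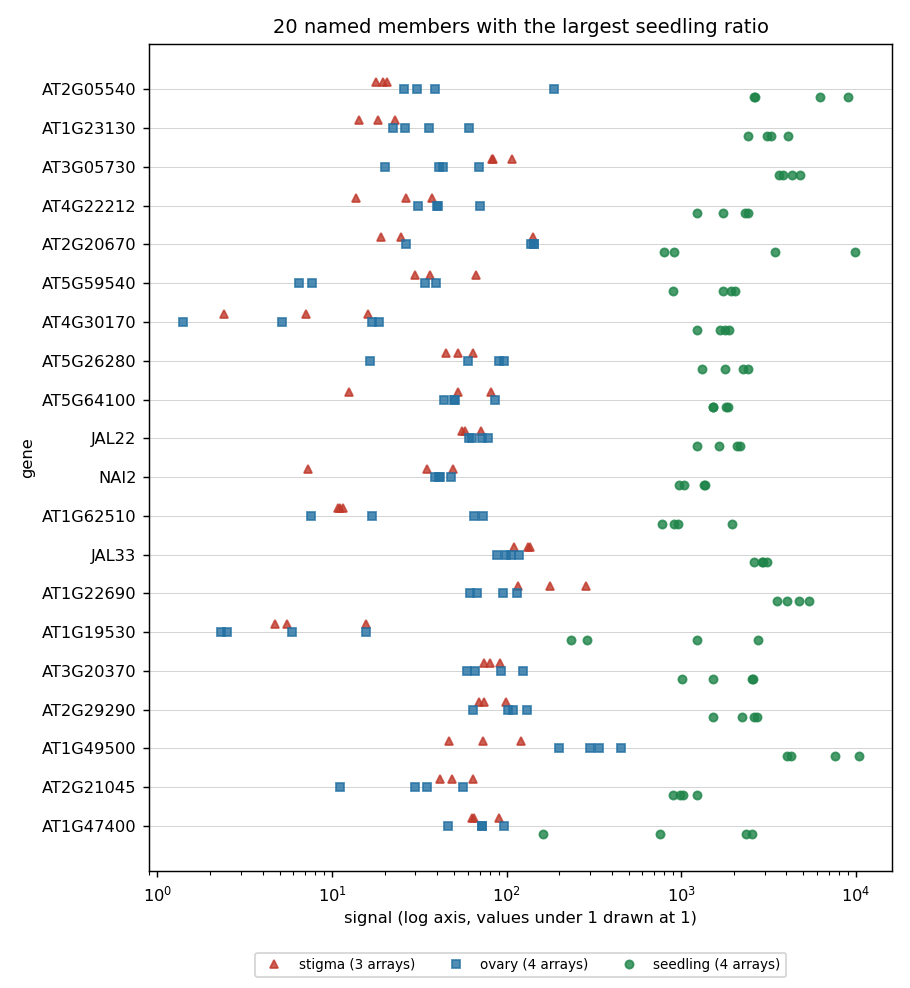
Signal on each of the 11 arrays (log axis) for the 20 named members with the largest ratio; red triangles are stigma, blue squares ovary and green circles seedling arrays. The green points lie to the right of all others in each line, and they are tight for JAL33 (2621.7 to 3091.9) and wide for AT1G47400 (161 to 2559.6).

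Several named members encode small secreted proteins with disulfide bridges. Defensin-like proteins are short cysteine-rich peptides related to antimicrobial defensins. AT3G05730 had 82.2, 83.7 and 107.8 in stigma, 41.2, 20.2, 43 and 69.3 in ovary and 4332.8, 3824.4, 4786.9 and 3616.9 in seedling (ratio 45.4). AT4G22212 had 13.7 to 37.6 in stigma, 30.9 to 70.8 in ovary and 2414.8, 2309, 1727.5 and 1231.7 in seedling (at least 38.4). The seedling arrays of the first lay within a narrow band, and those of the second were highest in seedlings 1 and 2.

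The next 3 members encode proteins of the lipid transfer and protease inhibitor type, which have a conserved cysteine pattern. AT1G62510 had 914.1, 957.6, 774.7 and 1950.2 in seedling and at most 73 in the pistil. AT2G45180 had 12914.9, 12110.2, 14210.6 and 16979.9 in seedling. In the pistil it was far from silent, with 378, 184.9 and 360.6 in stigma and 1337.9, 1201.5, 930.2 and 729.6 in ovary. AT3G53980 had 1381.1 to 2171.1 in seedling and 41.4 to 225.7 in the pistil. AT1G22690, of the gibberellin-regulated GASA family of cysteine-rich peptides, had 4706.8, 4018.1, 5424.9 and 3556.9 in seedling, and its pistil signals were 116.1 to 285.3 in stigma and 61.8 to 114.1 in ovary.

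Class III peroxidases are secreted enzymes that use hydrogen peroxide to cross-link or loosen the cell wall, and roots hold many of them. Their family list, drawn up after the members were known, has 73 genes. Of these, 55 could be named on the array, and 5 of the 55 were members. AT4G30170 had 2.4, 7.1 and 16.1 in stigma, 1.4, 17, 18.6 and 5.2 in ovary and 1667, 1779.9, 1231.2 and 1881.1 in seedling, at least 32.8 times the floor. AT5G64100 had 12.5 to 81 in stigma, 43.8 to 85.9 in ovary and 1525.6, 1518.8, 1814.2 and 1849.2 in seedling (29.2). Both were even across the seedling arrays, and their pistil arrays were all low.

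The other 3 named members of that family were nearer the threshold. AT5G17820 had 453.2 to 692.6 and AT3G01190 434.2 to 749.1 in seedling, each with at most 17.4 in the pistil, and AT4G26010 had 347.7 to 659.2 against at most 71. None of these 5 named genes differed more than 1.90-fold between its highest and lowest seedling array. The member 267053_s_at, counted without a name, matches AT2G38390 and AT2G38380, which are also peroxidase genes. It had 3249.1, 3328.2, 2142.3 and 1435.1 in seedling and at most 66.6 in the pistil, at least 50.8 times the floor. Its highest and lowest seedling arrays differed 2.32-fold. Of 32 named peroxidase probe sets that were over the filter and no members, 12 were at least 2-fold higher in seedling than in both pistil parts. At least 2-fold lower than both were 3. Of all tested probe sets, 9.14% were as much higher. AT5G64120 missed the set with a ratio of 8.11 (2560.7, 2664.2, 1721 and 1155.5 in seedling and 109.3 to 306.2 in the pistil). The family was not of a single pattern: AT1G44970 had 10447.2 to 12483.3 in stigma and 4644.5 to 5820.6 in ovary against 145.7 to 204.8 in seedling, and AT5G19880 had 14090.3 to 19204.1 in stigma and 3.3 to 17.4 in seedling.

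Jacalin-related lectins bind sugars, and some of them join the aggregate that PYK10 forms when endoplasmic reticulum bodies break. There were 6 among the named members. JAL33 had 136.5, 109.8 and 131.7 in stigma, 88.2, 99.5, 106.1 and 118.4 in ovary and 2621.7, 3091.9, 2948.7 and 2900.2 in seedling, with little spread in any tissue. JAL22 had 55.5 to 71.7 in stigma, 60.7 to 78.3 in ovary and 2160.8, 2075.4, 1233.3 and 1651.2 in seedling. The ratios were 22.9 and 25.9.

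AT1G52050, AT1G52060 and AT1G52070 lie beside each other on chromosome 1 with 0 genes between them in the reference gene order (TAIR10.1). Their seedling signals were 867, 687.8, 805.7 and 533.4 for AT1G52050, 1325.7, 1309.7, 1064 and 1221.2 for AT1G52060, and 974, 732.7, 591 and 489.3 for AT1G52070. All pistil signals of the 3 genes lay between 11.6 and 103.6. Related neighbours can bind the same probes, which was not tested here. AT5G35940 had 388 to 708.6 in seedling and at most 34 in the pistil.

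NAI2, which encodes a protein needed to form endoplasmic reticulum bodies, was a member, with 7.3, 34.8 and 49.4 in stigma, 41.7, 47.7, 41.2 and 38.7 in ovary and 1360.3, 1349.4, 969.8 and 1030.7 in seedling. NAI1, the gene of a bHLH factor that controls these bodies, was not a member: its seedling signals of 456.2, 450.4, 546.8 and 289.2 gave 8.71 times the floor, with 5.8 to 25 in the pistil. JAL34, left out by name, had 7222.4, 6986.6, 6514.3 and 6163.7 in seedling. A lectin gene next to JAL22 in its numbering had the opposite pattern, since JAL23 had 169.9 to 351.6 in stigma, 2262.8 to 5216.9 in ovary and 39.7 to 47.1 in seedling.

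**Figure D3:**
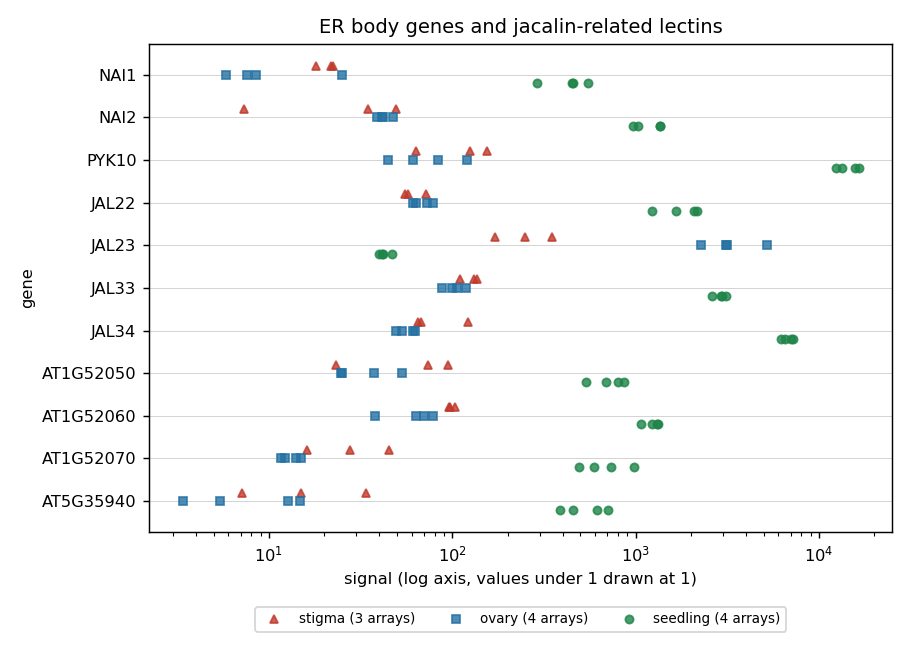
Signal on each array (log axis) for genes of the endoplasmic reticulum (ER) body and for jacalin-related lectins, members or not; symbols as in the legend, 3 stigma, 4 ovary and 4 seedling arrays. Seedling points lie to the right of the pistil points in every line but that of JAL23, whose ovary arrays (2262.8 to 5216.9) lie to the right of its other arrays.

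Other neighbours among the named members were AT5G26260 and AT5G26280, with 2 genes between them, and AT3G20340 and AT3G20370, with 3. In all, 7 of the 63 named genes had another within 9 genes. AT5G26260, AT5G26280 and AT3G20370 encode proteins with a TRAF-like (MATH) domain. AT5G26280 had 2261.2, 2426.4, 1781.2 and 1316.6 in seedling and 16.4 to 96.4 in the pistil. AT3G20370 had 2570.7, 2556.7, 1522.9 and 1009.4 in seedling and 59 to 124.7 in the pistil. In each of the 3 genes seedlings 1 and 2 were high and seedlings 3 and 4 low. The named members fell on all chromosomes, with 14 on chromosome 1, 9 on 2, 16 on 3, 13 on 4 and 11 on 5.

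Further named members are known from stress responses, and were picked for that role after their values were seen. LTI30, a dehydrin gene of cold and drought, had 81.8, 41.3 and 13.6 in stigma, 88.4, 88, 56.7 and 44.6 in ovary and 906.3, 767, 1475.3 and 879.6 in seedling (ratio 14.5). OSM34, an osmotin-like gene, had 867.9, 1020.9, 870 and 1187.3 in seedling, with 3.5 to 8.5 in stigma and 18.9 to 89.1 in ovary. AT3G11930, a universal stress protein gene, had 3561.3 to 4497.9 in seedling. HIS1-3, a drought-inducible linker histone gene, had 58.1 to 68.1 in stigma, 74.3 to 91.5 in ovary and 228.2, 218.9, 1629 and 2013.7 in seedling.

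MSRB9 and MSRB6 encode methionine sulfoxide reductases, which repair oxidised methionine. MSRB9 had 1214.4, 1119.7, 780 and 1091.3 in seedling against 18.7 to 128.1 in the pistil, and MSRB6 had 1022.9, 948.4, 1093.9 and 467.9 against 51.1 to 78.1. Of their relatives, MSRB5 had 513.2 to 1163.5 in seedling and 35.2 to 290.7 in the pistil, and MSRB3 had 251.3 to 348.2 against 186.4 to 386.7. MSRB3 thus overlapped between seedling and pistil, and neither relative was a member.

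Nutrient and metabolic genes included AT1G47400, which encodes an IRONMAN peptide of the iron deficiency response, with 63.2, 90.3 and 64.6 in stigma, 46.2, 96.6, 72.4 and 72.3 in ovary and 2559.6, 2351.9, 756.2 and 161 in seedling. AT3G13610, the feruloyl-CoA hydroxylase gene of coumarin synthesis, had 836.9, 889.8, 334.9 and 170.2 in seedling and at most 83.7 in the pistil. AT2G21045, an arsenate reductase gene, had 1226.9, 1024.2, 899.1 and 982.9 in seedling against at most 64. The first pair was high in seedlings 1 and 2 and low in seedling 4, and AT2G21045 was even.

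ATSPS4F, a sucrose-phosphate synthase gene, had 1390.3, 1313.7, 583.3 and 145.6 in seedling and 26.6 to 94.5 in the pistil. AAH, the allantoate amidohydrolase gene of purine breakdown, had 678.3, 830.3, 997 and 1258.1, and GAT1_2.1, a glutamine amidotransferase-like gene, had 328.3, 378, 472.4 and 1343.9. These last genes were highest in seedling 4. AT2G29290, of the tropinone reductase-like dehydrogenases, had 1519.1 to 2708.9 in seedling (ratio 22.4), and AT5G59540, a 2-oxoglutarate-dependent oxygenase gene, had 894.9 to 2042.1 (at least 33.0).

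Wall and structural genes included AT4G16980, of the arabinogalactan-protein family, with 9797.7, 9346.5, 10714.3 and 11135.9 in seedling. Its pistil signals were also well above the filter, at 596.2 to 691.8 in stigma and 680 to 1139.9 in ovary. AT4G38080, a hydroxyproline-rich glycoprotein gene, had 800.9 to 1012.5 in seedling and at most 10.4 in the pistil. AT5G54370, related to root cap proteins, had 618.3 to 745 against at most 77.7. The 3 were even over the seedlings, unlike BZIP61, a bZIP transcription factor gene, with 314.3, 382.1, 432.7 and 1498.2.

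Pathway genes that were no members show what the set leaves out. The 19 lists, of root, leaf, nutrient and stress functions, held 505 genes, of which 45 could be named on the array, and LTI30 was the only member among them. Of 35 other tested genes, 18 were called higher and 5 lower in seedling than in stigma, where called means an adjusted p under 0.05 by limma with Benjamini-Hochberg adjustment over 15524 probe sets and at least 2-fold. Over all tested probe sets 15.1% were called higher and 11% lower. Against the ovary, 17 were called higher and 5 lower, beside 11.7% and 11.1%. The median log2 difference of these genes was 1.06 against each pistil part, and −0.04 against stigma and −0.12 against ovary over all tested probe sets. List genes were matched to the array by symbol, and a symbol can stand for more than 1 gene. FRO1 of the iron list was read as AT5G67590 and CCR2 of the clock list as AT1G80820, genes not known for iron transport or the clock. FRO1 was among the 35 and not called, and CCR2 was not tested.

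Of the 63 photosynthesis genes listed, 11 could be named on the array, and none of these 11 was a member. Of the 11, all tested, 7 were called higher than in stigma and 9 higher than in ovary. PRK, the phosphoribulokinase gene of carbon fixation, had 3191.1, 3638.5 and 3584.9 in stigma, 3536.7, 3720.2, 4222.4 and 3755.1 in ovary and 16542.3, 16852.3, 14445.9 and 12425.8 in seedling. It was 2.104 higher in log2 than in stigma (SE 0.13, adjusted p = 3.2e-08 by limma) and 1.97 higher than in ovary (SE 0.12, adjusted p = 3.6e-08 by limma). LHCB4.2, an antenna protein gene, differed by 2.17 (SE 0.19) and 1.89 (SE 0.18), and SBPASE, of the Calvin cycle, by 1.57 (SE 0.21) and 1.798 (SE 0.19). LHCB4.3, named after its values were seen, was not called, with 3660.8, 3740.5, 455.9 and 317.8 in seedling, 2145.3 to 2880.9 in stigma and 2346.2 to 2580.8 in ovary (log2 −1.05, SE 0.69 and −1.01, SE 0.64). It was lower in seedlings 3 and 4 than in seedlings 1 and 2 (log2 −3.22, adjusted p = 1.9e-06 by limma). HPR, the hydroxypyruvate reductase gene of photorespiration, had 11995.1 to 14429.4 in seedling and 1959 to 2999.5 in the pistil, differences of 2.26 (SE 0.14) and 2.501 (SE 0.13).

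Root and wall genes that were no members were also called. AT5G66390, a peroxidase gene of lignin deposition, had 134.1 to 191.5 in seedling and 1.4 to 23.7 in the pistil, differences of 2.65 (SE 0.34) and 3.22 (SE 0.32). EXPA7, an expansin gene of root hairs, had 140.8 to 224.1 in seedling and differed by 1.796 (SE 0.36) from stigma and 1.31 (SE 0.33) from ovary, and EXPA18 by 1.19 (SE 0.23) from ovary. HRGP1, of the hydroxyproline-rich proteins, differed by 1.06 (SE 0.34) and 1.91 (SE 0.32). TRY, also of the root hair and epidermis list, was lower in seedling than in stigma (log2 −1.04, SE 0.27).

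Sulfur and glucosinolate genes had different values in the pistil parts. SIR, the sulfite reductase gene, had 821.3 to 1017.2 in stigma, 2718.9 to 3097.6 in ovary and 3088.9 to 3420.1 in seedling, and was called only against stigma (1.78, SE 0.12), as was APS3, an ATP sulfurylase gene (1.19, SE 0.19). Whether these 2 differences themselves differ was not tested. BCAT4, of methionine chain elongation, had 4378.5, 4391.5, 2584.7 and 502.7 in seedling and rose above stigma (4.89, SE 0.63). It was not called against ovary (1.21, SE 0.59, adjusted p = 0.10 by limma). There it had 470.6 to 1396.3, a range that held the signal of seedling 4. AOP3, of glucosinolate side chains, was called higher than both (3.15, SE 0.49 and 1.37, SE 0.45). It had 3104.9, 3062.3, 1915.8 and 467.8 in seedling and 530.2 to 771.6 in ovary, so seedling 4 lay below every ovary array. AOP3 was also called lower in seedlings 3 and 4 than in seedlings 1 and 2 (log2 −1.68). GTR2, a glucosinolate transporter gene, was lower than in ovary (log2 −1.15, SE 0.16).

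Stress and defence genes went in both directions. The jasmonate genes JMT and THI2.1 were far lower in seedling: JMT had 417.9 to 558.8 in stigma, 1423.9 to 3647.6 in ovary and 6.3 to 11.3 in seedling. COR15A, a cold response gene, was also lower than in both, with 89.3 to 196.1 in seedling and 527.4 to 1763.1 in the pistil. GI, of the circadian clock, was lower than in stigma (log2 −1.45, SE 0.20) and ovary (−1.09, SE 0.19). COR47 was higher than in ovary (1.54, SE 0.24) and DI21 than in stigma (1.101, SE 0.21). The defensin genes LCR68 (2.03, SE 0.24) and LCR69 (1.67, SE 0.30) were higher than in stigma, and PDF1.2b than in ovary (1.85, SE 0.54). Stigma 1 was the highest of the stigma arrays for LCR68 (1163.5, 698.1 and 664.5) and LCR69 (4297, 1361.2 and 1513). The same held for THI2.1 (9094.1, 2155 and 2020), and the cause was not tested. Against the ovary, DI21 and LCR69 were lower in seedling by less than 2-fold (log2 −0.74 and −0.75), with no overlap of arrays. PDF1.2b had 651.1, 467.4, 139.5 and 60.4 in seedling and 37.8 to 95.5 in ovary. It was called lower in seedlings 3 and 4 than in seedlings 1 and 2 (log2 −2.37). Its probe set, like that of HRGP1, is marked as shared between related transcripts. PDF1.2, which was not tested, had 75.8, 94.5, 23.1 and 34.2 in seedling and 51.7 to 146.1 in ovary.

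The members were also compared between stigma and ovary, a difference that the rule did not use. No member was called higher in stigma and 15 of 131 were called lower (11.5%), beside 6.27% higher and 9.51% lower over all 15524 tested probe sets (15.8% in either direction). At an adjusted p under 0.05 without the fold, 7 were higher and 19 lower by limma, and 33 had an unadjusted p under 0.05 in either direction. Nothing is read from these shares, because the rule holds both pistil means down and 93.0% of all tested probe sets, but 22 of the members, were over the filter on at least 3 pistil arrays. With the array medians set equal, 3 were called higher and 11 lower, and this scaling moved the median difference of all tested probe sets from −0.07 to 0.09. Without stigma 1, 2 were called higher and 11 lower. The median difference of the members was −0.27. Stigma and ovary arrays did not overlap in 33 members (25.2%, against 45.2% of all tested).

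Most of these calls lie at low signals: 9 of the 15 had a stigma mean under 50, and 7 were over the filter on at least 3 pistil arrays. With the stigma and ovary arrays alone, and the filter applied to them, 7 were called. All 15 were lower in stigma within both pistil runs, A (with 1 stigma array) and B, and in B 10 of them were at least 2-fold lower. In 12 the arrays of the 2 tissues did not overlap. The 15 were called on these same arrays, so nothing is read from these counts. Control probe sets for actin gave log2 ratios of 3' over 5' end signal of 2.41 to 4.14 in stigma and 1.70 to 3.03 in ovary, and those for GAPDH 1.09 to 2.27 and 0.70 to 1.11, and the part of this in the result was not tested.

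AT1G49500, whose protein has no known function, had 46.6, 73.2 and 120.4 in stigma, 299.3, 452.4, 336.1 and 200.5 in ovary and 4230, 4026.7, 7586.5 and 10387.7 in seedling. The pistil parts did not overlap, and the log2 difference of stigma from ovary was −1.82 (SE 0.36, adjusted p = 0.0014 by limma). AT2G45180, of the lipid transfer type and given above, was lower by −1.74 (SE 0.25, adjusted p = 0.00015 by limma), with signals over the filter on all arrays. AT3G11930, the universal stress protein gene, had 161.3, 18.6 and 114 in stigma and 254.7, 405, 268.9 and 304 in ovary, a difference of −1.76 (SE 0.40), which was −1.07 without stigma 2.

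OSM34 and AT1G67330 were under the filter on every pistil array and passed it through the seedling, so they have no value in the fit of the pistil arrays alone. OSM34 differed by −1.54 (SE 0.32) and AT1G67330, with 9.7, 15.6 and 19.3 in stigma and 115.4, 123.5, 62.4 and 37.3 in ovary, by −1.57 (SE 0.31). In these, stigma signals were near the 10th percentile of all values (17.3), which was added to each signal before the logarithm and holds such differences down. Both calls ended with an added constant of 64 (−0.73 and −0.87). The other named members called were AT4G01870 (−1.15, SE 0.25), AT3G53980 (−1.12, SE 0.30) and AT5G44380, of the berberine bridge enzyme family (−1.01, SE 0.36). AT5G44380, with 10.4, 40 and 97 in stigma and 83.8 to 113.8 in ovary, was also under the filter on every pistil array. Its arrays overlapped between the 2 tissues, and its adjusted p was 0.044 by limma. Within the runs its difference was −2.06 in A and −0.47 in B.

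**Figure D4:**
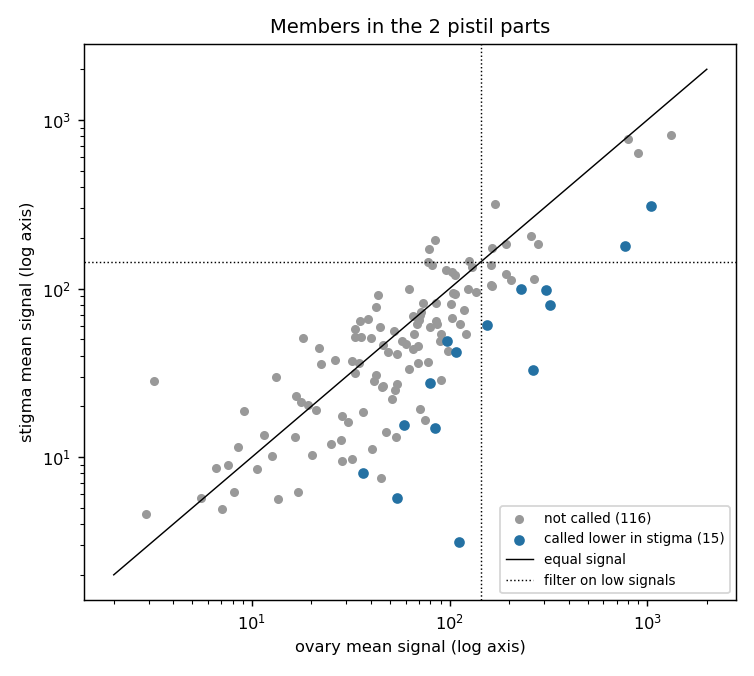
Stigma mean (3 arrays) against ovary mean (4 arrays) for the 131 members, both log axes; blue points are the 15 called lower in stigma, grey the 116 others, the solid line marks equal signal and the dotted lines the filter at 144.2. Most members lie under the filter in both parts, and the blue points all lie below the line of equal signal.

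Members varied more between the seedling arrays than other transcripts. The coefficient of variation over the 4 seedlings had a median of 31.6% in the members and 18.1% in 6691 other probe sets with a seedling mean of at least 500. Highest and lowest seedling array differed at least 2-fold in 66 members (50.4%, against 22.0%) and at least 5-fold in 23 (17.6%, against 1.94%). The highest such fold was 31.3, of 247925_at, with 346, 325.4, 523.4 and 10197.3. The lowest was 1.12, of 263046_at. Seedling 4 was the highest array in 59 members (45.0%, against 35.5%) and the lowest in 51 (38.9%, against 42.5%). The seedling mean is part of the rule, so these figures describe the set and are not tested.

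Seedlings 3 and 4 were set against seedlings 1 and 2, the division given by the source label. Of the 131 members, 17 were called higher and 8 lower in seedlings 3 and 4 (25, 19.1%), beside 3.98% of all tested probe sets, 2.24% higher and 1.74% lower. Scanning run divides these arrays in the same way, and the chips of seedlings 3 and 4 were of lot 3, those of seedlings 1 and 2 of lots 1 and 2, so label, run and lot cannot be told apart. The rule used the mean of these same arrays, and a transcript can pass it through 1 or 2 of them, so nothing is read from the larger share of calls, and the calls below describe the 4 seedlings. In all 17 the signal of seedling 4 lay above that of seedling 3, and in all 8 below. The same share over all called probe sets was not taken. Seedling 4 was the highest or lowest seedling array in 84.0% of the members and 78.0% of the 6691 other probe sets, so nothing is read from these counts. Without seedling 4 the calls numbered 3, without seedling 1 they numbered 2 and without seedling 2 there was 1, where a lone array was assumed to vary like the other groups. Without seedling 3 there were 37. For actin the log2 ratio of 3' over 5' end signal was 1.63, 1.46, 2.403 and 2.49 in seedlings 1 to 4 and that of GAPDH 0.32, 0.25, 0.55 and 0.42, and the part of this in the result was not tested.

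HIS1-3, the linker histone gene, with its signals given above, was higher by 2.92 (SE 0.23, adjusted p = 4.5e-05 by limma), and its call held without each seedling in turn (2.77 to 3.08). AT5G01740 had 150.9, 135, 432.1 and 2634.7, a difference of 2.77 (SE 0.60). AT2G20670, of a family of unknown function, had 905.3, 797.2, 3426.5 and 9901.6 (2.75, SE 0.73, adjusted p = 0.036 by limma), and AT1G19530 had 287.4, 235, 1230.7 and 2751.1 (2.74, SE 0.45). In each of these seedlings 1 and 2 were alike and low, seedling 3 was between, and seedling 4 was high.

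AT1G54740 had 525.4, 386.8, 1135.3 and 3840.9 (2.17, SE 0.43), AT2G30930 had 891.6, 813.3, 2072.6 and 6345.4 (2.07, SE 0.41) and AT5G56100 had 902, 839.8, 1554.3 and 4685.5 (1.61, SE 0.37). The call of each of AT2G20670, AT1G19530 and AT1G54740 ended without seedling 1, without seedling 2 and without seedling 4, and that of AT5G01740 without seedling 2. Without seedling 1, 3 or 4, AT5G01740 fell under the filter and was not tested. The call of AT2G20670 also ended with quantile scaling, with no filter and with no trend (adjusted p = 0.051, 0.053 and 0.065 by limma). Without seedling 4 the differences were 1.99, 2.17 and 1.299.

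AT1G47400, the IRONMAN gene, was lower by −2.73 (SE 0.50, adjusted p = 0.0099 by limma). Its call held without seedling 4 (−1.68, adjusted p = 0.043 by limma) and ended without seedling 1 (−2.67) and without seedling 2 (−2.79). ATSPS4F differed by −2.13 (SE 0.47), AT3G13610 by −1.78 (SE 0.43), AT5G26260, with 904.5, 1042.1, 319.6 and 279.4, by −1.64 (SE 0.45) and AT3G20370 by −1.04 (SE 0.29, adjusted p = 0.046 by limma). The calls of these 4 ended without seedling 1, 2 or 4, and that of AT5G26260 also without seedling 3 (−1.74, adjusted p = 0.059 by limma) and without stigma 2 (adjusted p = 0.053 by limma). That of AT3G20370 ended in 9 of 19 alternatives, also with equal medians (−0.99), no filter, no trend, and without stigma 2, stigma 3 or ovary 2 (adjusted p up to 0.071 by limma in these last 5).

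**Figure D5:**
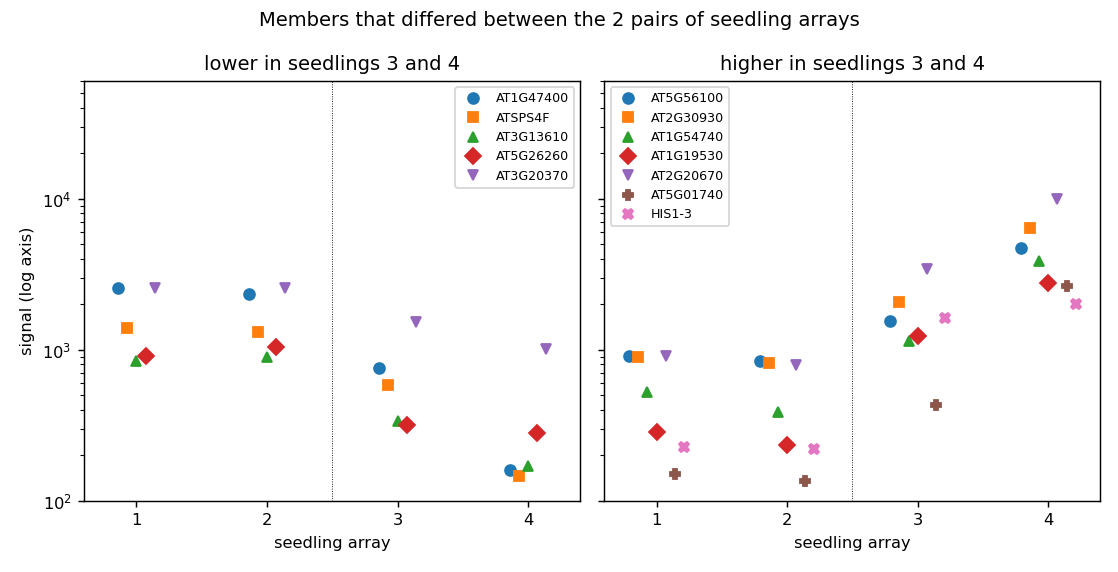
Signal (log axis) on the 4 seedling arrays for the 12 named members called between the pairs, 5 lower (left) and 7 higher (right) in seedlings 3 and 4; points are offset sideways within an array, and the dotted line separates the pairs. Seedling 4 lies beyond seedling 3, away from seedlings 1 and 2, in every gene drawn.

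Other genes of the same pathways, from lists drawn up after these values were seen, are given by value only. BHLH101, a bHLH factor gene of the iron response, had 216.1, 174.3, 110 and 16.8 in seedlings 1 to 4, and AT1G74770, a BRUTUS-LIKE gene of iron sensing, had 448.7, 446.7, 317.4 and 194.5. PYE, another factor of that response, had 460.3, 671.9, 424.9 and 404.8. Also on the iron list, AT1G18910 had 169.9, 191.6, 167.3 and 167.8, AT3G12900 had 156.8, 218.4, 126.6 and 172.6, and BGLU42 had 429.7, 458.5, 363.9 and 215.2. Only 6 of the 24 iron genes listed could be named on the array. BHLH101 was under the filter on too many arrays to be tested, and its log2 difference between the pairs was −1.68. Of 5 listed iron genes over the filter none differed 2-fold, with a median log2 difference of −0.41, beside 3.37% of all tested probe sets 2-fold higher, 2.81% 2-fold lower and a median of −0.04. MCCA and IVD, genes of leucine breakdown that are known to be raised in darkness and sugar starvation, had 668.1, 620, 1103.4 and 5562.4, and 387, 470.4, 764.3 and 2710.9. They were the only 2 of 19 genes listed for darkness and sugar starvation that could be named on the array. BHLH101 and AT1G74770 were low and MCCA and IVD high in seedling 4, but AT1G18910 and AT3G12900 were not lowest there.

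Families described first had smaller values between the pairs. The 5 named peroxidases and 6 named lectins had log2 differences from −0.59 to 0.26 and from −0.64 to 0.04. Their adjusted p by limma was at least 0.316 and 0.133, with no call among them. The peroxidase probe set 267053_s_at was not called either (log2 −0.90, adjusted p = 0.24 by limma). A missed threshold does not show that they were equal. Only 267461_at and 257823_at of the 131 were called in both comparisons, the first with 130.9, 153.6 and 249.3 in stigma, 1263.2, 290.1, 545.8 and 970.2 in ovary and 3401.1, 3521.7, 10591.8 and 15634.6 in seedling. They are given because they were the only ones, chosen after their values were seen.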

How the data were processed

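RNA of 11 arrays was analysed from the signal table of the series. Per the file headers the arrays are of the ATH1 type; no source used here names the software or the probe summary. The deposited values are intensity on a linear scale, 1 per probe set, which the authors had brought to a 2% trimmed mean of about 500 on each array, as read from the values. Groups came from the array titles, because stigma and ovary arrays carry the same descriptive text. Run and chip lot came from the deposited run files.

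Differences were tested on log2(signal + 17.3), where 17.3 is the 10th percentile of all values, over 15524 of 22746 probe sets with a signal over 144.2, the 40th percentile, on at least 3 arrays. The tool was limma 3.58.1 in R 4.3.3, with lmFit, eBayes with a trend and Benjamini-Hochberg adjustment; called means adjusted p under 0.05 and at least 2-fold. The fit was tested on simulated data. Such folds are held down at low signals, and the number of arrays limits the precision. Stigma and ovary were compared with 1 mean per tissue, and the seedling pairs with 4 means.

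Gene names came from the platform's annotation and RefSeq's gene table for TAIR10.1, used for names and gene order only; 13436 of 13513 probe sets with 1 gene matched. No sequence was used. The members and lists were chosen with earlier results of these data known. Named members were the 20 with the largest ratio, the 10 with the highest seedling mean, those in a list, up to 5 called each way per comparison and those next to the threshold, plus up to 3 called genes per list. Members outside this rule were named for their family or role after their values were seen. The 19 lists covered nitrogen, phosphate and sulfate, iron and metals, Casparian strip, root hair, root patterning, aquaporins, glucosinolates, triterpenes, photosynthesis, photorespiration, jasmonate, pathogenesis-related, cold and drought, clock, wall proteins, lipid transfer, vascular, and seed genes. Alternatives changed floor, factor, scaling, constant, filter, arrays and replicate block.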

Additional observations from a re-analysis of the deposited data

Results flagged for a closer look

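Among 68 groups of 4 arrays of 34 named members, 6 had an array far from the others by Dixon's test at the 95% level; chance gives about 1 in 20 groups, but the rule used these same values, so nothing is read from the number. AT2G05540 had 187.7 in ovary 1, against 25.8 to 39 on the other ovary arrays. AT2G20670 had 26.4 in ovary 4, against 137.1 to 144.4. AT5G64100 had 85.9 in ovary 3, against 43.8 to 50.6. AT1G54740 had 101.3 in ovary 3, against 70.9 to 74.8. Each of these 4 lies below the lowest seedling signal of its gene. AT1G62510 had 1950.2 in seedling 4, against 774.7 to 957.6 on the other seedling arrays, and AT5G01740 had 2634.7 in seedling 4, against 135 to 432.1.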

How the results depend on the processing

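The set held 131 members as reported, 82 with a floor of 100 and 42 with a factor of 20, of which all were among the 131; in the other 17 alternatives it held 112 to 186. Leaving out each array in turn gave 113 to 142 members. The 15 calls between stigma and ovary became 6 with an added constant of 64, 26 with no fold threshold (7 higher and 19 lower) and 7 with the stigma and ovary arrays alone; leave-one-out gave 11 to 18, and leaving out stigma 1, ovary 1 and seedling 4 together, chosen after seeing the data, gave 21. The cause was not tested, except that a larger constant shrinks differences at low signals. The 25 calls between the seedling pairs ranged from 1 to 37 when each array was left out in turn, and were 36 with the constant of 64. List genes called gave 19 to 30 against stigma and 18 to 27 against ovary over all alternatives. No result reversed. Whether replicate numbers pair the arrays cannot be told. Of 10 same-numbered pairs, 2 had a correlation over 0.1 (−0.08 to 0.26 over all 10). These were stigma 1 with ovary 1 (0.22) and stigma 3 with ovary 3 (0.26), each within 1 run. Stigma 2 and ovary 2 (−0.03) lay in different runs, so pairing and run cannot be told apart. With the replicate block 15 members were called between stigma and ovary, 13 of them shared with the fit without it, and 22 list genes against each of stigma and ovary. No alternative tests whether low signals in the pistil are background or transcript.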
